A study of Homo sapiens with 12 samples.

Results

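ADM, ALDOC, ANKRD37, BNIP3, BNIP3L, CA9, CA12, EGLN1, EGLN3 and ENO2, a set of hypoxia-responsive genes chosen by symbol, were measured by RNA-seq in A375 cells, an established human melanoma line. All 10 were present among the 4918 genes analysed here, whose symbols run alphabetically from A1BG to FAM46B, so HIF1A, VHL, VEGFA and other hypoxia genes later in the alphabet were not analysed. The cells were untreated (control), treated with SB-3CT, a small-molecule inhibitor of the matrix metalloproteinases MMP2 and MMP9, treated with interferon-γ (IFNγ), or given both agents, for 24 h and with 3 samples in each of the 4 groups. No group was placed under low oxygen as far as the labels state, so the comparisons ask how SB-3CT and IFNγ moved these genes, not how hypoxia did. All samples came from 1 cell line, nothing in the labels says that the 3 samples of a group were separate cultures, and p-values therefore measure the spread between these samples, which may be technical.

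Cells sense oxygen through the hypoxia-inducible factors (HIFs). When oxygen is plentiful, prolyl hydroxylases of the EGLN family mark the HIF α subunits, which are then ubiquitinated by the von Hippel-Lindau complex and degraded. When oxygen is scarce, the α subunits persist, pair with ARNT, bind hypoxia response elements with the core letters ACGTG or GCGTG, and recruit the coactivators EP300 and CREBBP. The set covers several arms of that response, namely feedback through the oxygen sensors themselves (EGLN1, EGLN3), glycolysis (ALDOC, ENO2), removal of mitochondria by mitophagy (BNIP3, BNIP3L), pH control at the cell surface (CA9, CA12), the secreted peptide adrenomedullin (ADM), and ANKRD37, an ankyrin repeat protein known as a HIF target.

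The bases ahead of the start site of 4 members are shown because these genes form a contrast in the results. ALDOC was lower with either agent, BNIP3 passed the test in no comparison, and CA9 and EGLN1 were the members whose SB-3CT difference depended on IFNγ. The windows came from RefSeq, were searched over 250 bases before the start in GRCh38.p14, and were placed on hg19 (GRCh37) by an exact match. They are printed 5′ to 3′ on the gene's own strand, with ACGTG or GCGTG on either strand in capitals, read as CACGT or CACGC where the match is on the other strand. The windows are chr17:26903967-26904163 on the minus strand for ALDOC, chr10:133795472-133795677 on the minus strand for BNIP3, chr9:35673675-35673924 on the plus strand for CA9, and chr1:231558034-231558283 on the minus strand for EGLN1. For ALDOC and BNIP3 the last 53 and 44 bases before the RefSeq start were left out, since GENCODE places them inside a transcript.
ALDOC: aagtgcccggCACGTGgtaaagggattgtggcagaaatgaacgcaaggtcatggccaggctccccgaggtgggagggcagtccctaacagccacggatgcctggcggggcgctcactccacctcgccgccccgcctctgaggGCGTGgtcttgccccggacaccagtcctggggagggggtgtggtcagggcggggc
BNIP3: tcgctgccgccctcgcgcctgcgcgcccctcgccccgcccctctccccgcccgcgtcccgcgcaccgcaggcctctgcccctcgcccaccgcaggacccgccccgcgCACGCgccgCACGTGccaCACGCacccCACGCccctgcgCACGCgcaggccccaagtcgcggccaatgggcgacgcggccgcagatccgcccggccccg
CA9: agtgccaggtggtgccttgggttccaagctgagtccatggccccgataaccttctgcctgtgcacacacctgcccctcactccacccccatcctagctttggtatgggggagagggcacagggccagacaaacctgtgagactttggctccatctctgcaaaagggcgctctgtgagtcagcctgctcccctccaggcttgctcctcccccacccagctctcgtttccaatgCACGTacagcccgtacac
EGLN1: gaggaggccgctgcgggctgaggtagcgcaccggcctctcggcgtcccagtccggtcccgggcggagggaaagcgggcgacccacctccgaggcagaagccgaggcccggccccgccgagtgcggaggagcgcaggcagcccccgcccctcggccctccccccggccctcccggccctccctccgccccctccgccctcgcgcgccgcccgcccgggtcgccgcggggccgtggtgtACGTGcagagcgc

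BNIP3 had 6 core matches in its 250 bases and ALDOC had 5, counting CACGTG on both strands, whereas CA9 and EGLN1 had 1 each. ANKRD37 had 3 matches, ADM, ENO2 and CA12 had 1 each, and EGLN3 had 0. The windows of ANKRD37, ENO2 and EGLN3 lie wholly inside the gene as GENCODE places it. The ALDOC matches that begin at -45 and -28 from the RefSeq start lie in the bases left out of its printed window. Among the 9 members with a promoter in the RefSeq table (BNIP3L was missing), ACGTG was found in 6, GCGTG in 4 and either of them in 8. Of all 35116 promoters in that table, 18.5% held ACGTG, 32.2% held GCGTG and 43.2% held either. The members were chosen as hypoxia-responsive genes, and G and C made up 60.4% (CA9) to 81.6% (BNIP3) of their windows. No share was obtained for promoters of like composition, so enrichment was not tested. A match of these letters is a description of the sequence and not of factor binding, which was not measured here.

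Summed FPKM (fragments counted per kilobase of transcript after adjusting for sequencing depth) over the genes analysed ran from 121928 to 129692, between 4433 and 4605 genes were above 0, and relative depth ran from 87.1% to 150.1% of the control mean, while absolute depth is unknown. CXCL10, an IFNγ-induced chemokine, reached 78.7 to 122.5 FPKM in samples given IFNγ and at most 0.05 in the others. Of 8 melanoma markers, CSPG4, CAV1 and AXL were above 26 FPKM in all samples and DCT and ABCB5 were under 1 in all 12. Of 10 markers of other cell types in the table, 9 were under 1 FPKM in all 12 samples and CD68 ran from 19.8 to 31.6. The group given both agents stood apart in scale: a median-ratio size factor, which sets the typical gene equal between samples, was 0.865 to 0.874 there and 0.987 to 1.09 elsewhere, and the summed melanoma markers were 126 to 128 FPKM against 157 to 178 elsewhere. Among genes with a mean of at least 1 FPKM, the median log2 difference was -0.20 for SB-3CT with IFNγ against IFNγ and -0.21 against SB-3CT. It was -0.03 for SB-3CT and -0.04 for IFNγ against control. Results in the combined group are therefore given as deposited and after median-ratio scaling, and the cause of the shift was not tested. In bulk RNA, fewer cells expressing a gene and less RNA per cell cannot be told apart.

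On the FPKM scale, which is per length of transcript, the members ran from above 2.5% of all genes (CA12) to above 93% (BNIP3). BNIP3 was highest with a mean of 71.7 over the 12 samples. ALDOC (16.4), ADM (14.9), ANKRD37 (12.7), ENO2 (9.55), EGLN1 (7.59) and BNIP3L (6.74) formed a middle group in which each gene's range over the 12 samples overlapped that of its neighbour. CA9 lay lower at 2.4 FPKM, and EGLN3 lower still at 0.132 FPKM. CA12 was above 0 in 4 of 12 samples, with a highest value of 0.0396 FPKM in a control sample, and is at or near the detection limit. BNIP3, CA9, EGLN3 and CA12 did not overlap with their neighbours in this order. The spread over all 12 samples also differed: the highest value divided by the lowest was 1.12 for BNIP3, 1.33 for ADM, 1.43 for ANKRD37, 1.5 for CA9, 1.66 for EGLN1, 1.72 for ENO2, 1.74 for ALDOC and 1.78 for BNIP3L. EGLN3, under 1 FPKM in all samples, spanned 4.78-fold.

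**Figure D1:**
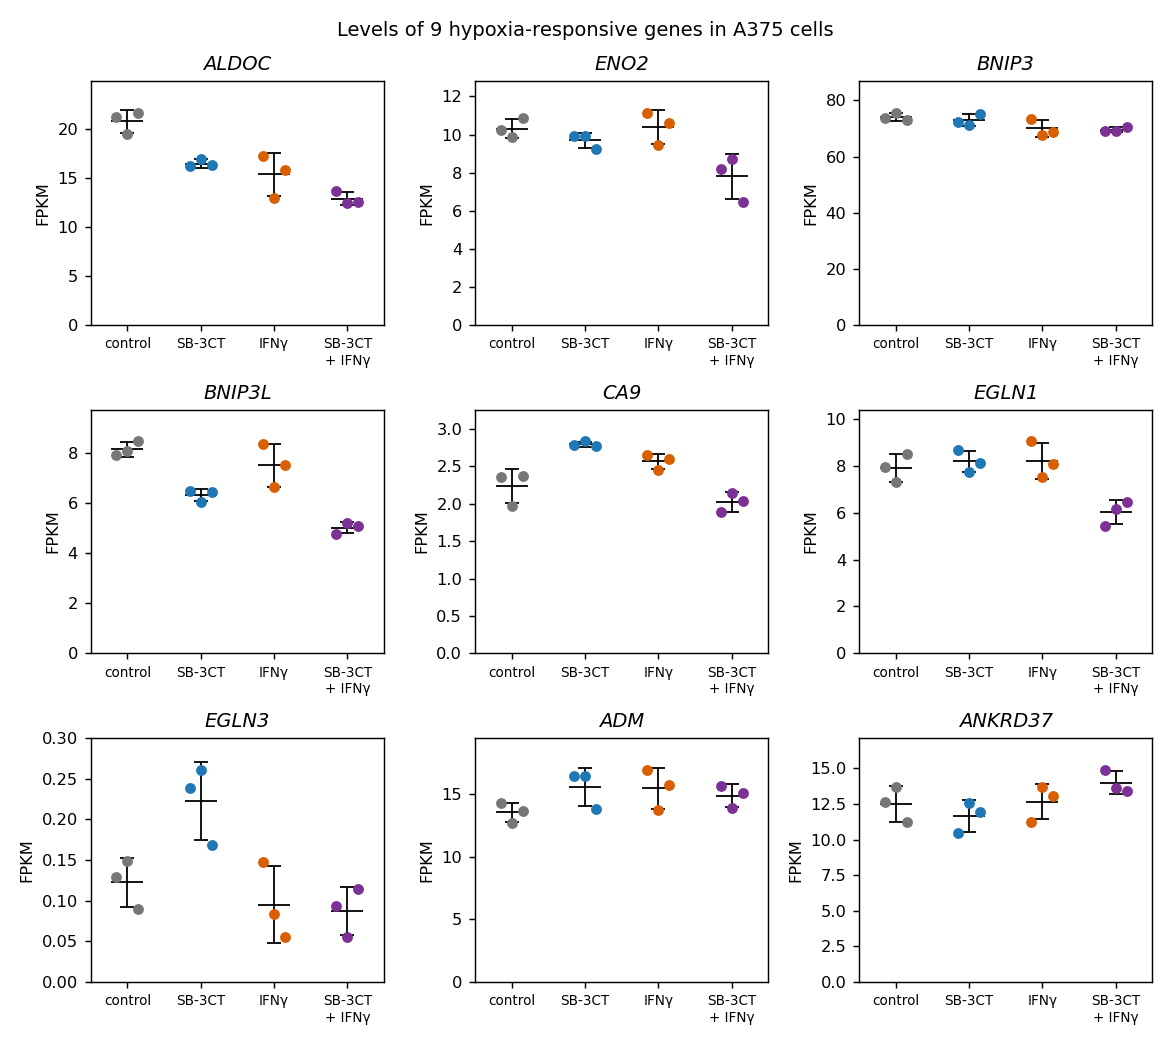
FPKM of 9 of the genes in each sample (points), with the mean (long line) and SD (error bars) of the 3 samples per group; each vertical axis starts at 0 and has its own scale. ALDOC stepped down from 20.7 FPKM in control to 12.9 with both agents, BNIP3 stayed between 67.6 and 75.6, and EGLN1 and ENO2 were lowest with both agents.

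SB-3CT alone lowered ALDOC and BNIP3L and raised none of the members at the test's threshold. ALDOC fell by 0.32 and BNIP3L by 0.32 on the log2(FPKM + 1) scale, to mean FPKM values of 0.793 and 0.776 of control. These 2 of 10 members compare with 12.2% of all 4918 genes called at a Benjamini-Hochberg adjusted p under 0.05 in limma, with 6.87% called lower and with 5.37% called higher. CA9 and EGLN3 were higher in all 3 SB-3CT samples than in all 3 control samples without passing the test, at log2 differences of 0.23 (SE 0.08, adjusted p = 0.106) and 0.12 (SE 0.04, adjusted p = 0.0858). Groups that did not overlap were frequent in the table, at 14.2% of genes for higher and 19.7% for lower.

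IFNγ alone lowered ALDOC and no other member. Its log2 difference was -0.42 (SE 0.10, adjusted p = 0.0371), and 1 of 10 members compares with 19.5% of all genes called, 11% lower and 8.46% higher. The other 9 members did not pass, with log2 differences from -0.11 for BNIP3L to 0.18 for ADM. Groups did not overlap for CA9, higher, and ALDOC, lower, as was so for 15% and 22% of all genes. In the same comparison CD274, the gene of the IFNγ-induced checkpoint ligand PD-L1, rose from between 0.428 and 0.635 FPKM to between 19.3 and 23.9 FPKM.

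The combination gave more calls, and scaling decided most of them. Against IFNγ alone, BNIP3L, EGLN1, ENO2 and CA9 were lower, 4 of 10 members against 37.9% of all genes called, 31.5% lower and 6.41% higher. Against SB-3CT alone, ALDOC, BNIP3L, CA9, EGLN1 and EGLN3 were lower and ANKRD37 was higher, 6 of 10 members against 40.5% of all genes called, 32.7% lower and 7.85% higher. After median-ratio scaling the first comparison kept BNIP3L as the member called lower and gained ANKRD37 and BNIP3 as called higher, with 31.9% of all genes called, 15.5% lower and 16.5% higher. The second kept EGLN3 lower and ANKRD37 higher and gained BNIP3 as higher, with 24% of all genes called, 10.2% lower and 13.7% higher. As deposited, 4 members lay lower without overlap against IFNγ and 0 higher, beside 39.6% and 9.35% of all genes. Against SB-3CT 7 lay lower and 1 higher, beside 41.9% and 9.84%. These pairs of comparisons share samples, the combined group in both and each single-agent group with a control comparison, so they are not independent of each other.

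Over the 4 pairwise comparisons the 9 members other than CA12 gave 36 results, of which 13 passed the test, 12 of them lower. After median-ratio scaling, when 13.8% of all genes passed for SB-3CT and 22.3% for IFNγ, 10 of the results passed, and 6 results passed in both with the same direction. ALDOC and BNIP3L passed in 3 comparisons each, CA9 and EGLN1 in 2, and ANKRD37, EGLN3 and ENO2 in 1, whereas ADM and BNIP3 passed in 0. At a fold change over 1.5 in FPKM + 1 with an unadjusted p under 0.05, 0 members were called in any of these comparisons, nor for the dependence of the SB-3CT difference on IFNγ. Of all genes that rule called 0.996% for SB-3CT, 4.76% for IFNγ, 7.46% and 5.65% for the combination against IFNγ and against SB-3CT, and 3.27% for the dependence. Among members with at least 1 FPKM the median log2 difference was -0.05 for SB-3CT against control, 0.01 for IFNγ against control, -0.23 for the combination against IFNγ and -0.29 against SB-3CT, beside -0.03, -0.04, -0.20 and -0.21 for all genes at that level.

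**Figure D2:**
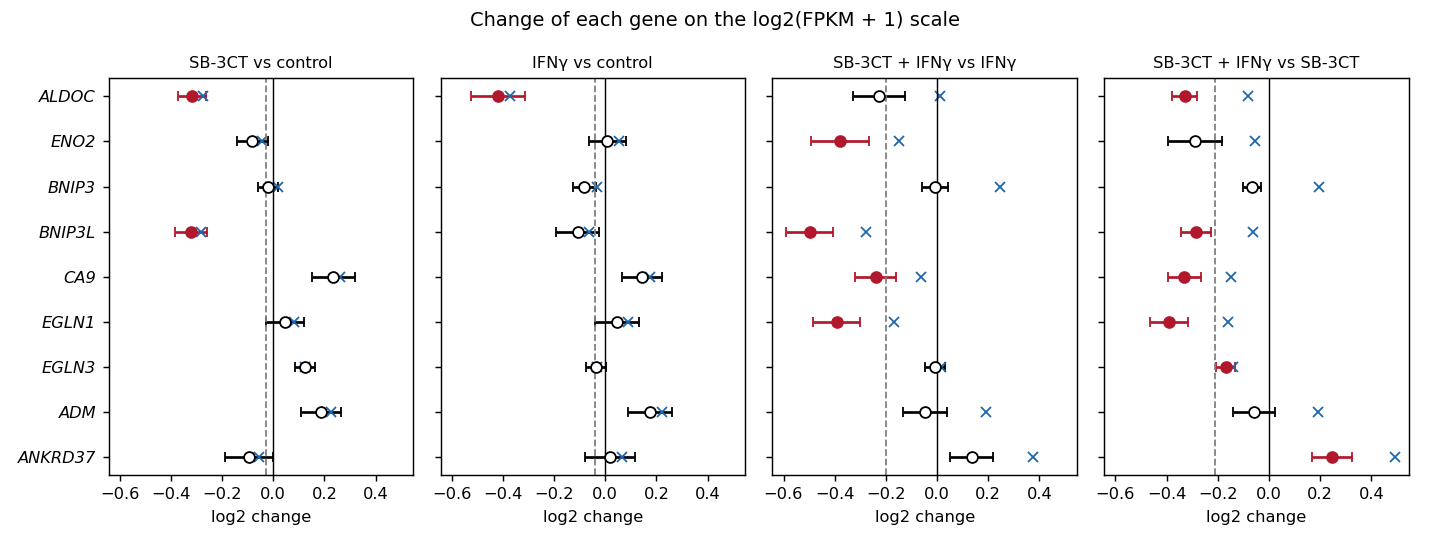
Log2 difference of each gene in the 4 pairwise comparisons on the log2(FPKM + 1) scale (circles, with SE; filled red where the adjusted p was under 0.05), the value after median-ratio scaling (blue crosses), and the median of all genes with at least 1 FPKM (dashed line). In both comparisons of the combination the crosses lie to the right of the circles, and ANKRD37 is the gene farthest to the right.

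Of the glycolytic members, ALDOC passed the test as lower in 3 of the 4 pairwise comparisons and ENO2 in 1. ALDOC encodes aldolase C, an isoform of the enzyme that splits fructose 1,6-bisphosphate, and lies at chr17:26900133-26903966 (hg19, GENCODE, as for all gene positions given here) on the minus strand, where it overlaps RSKR on the same strand. Its values were 21.2, 19.5 and 21.6 FPKM in control, 16.1, 16.9 and 16.2 under SB-3CT, 17.2, 13.0 and 15.8 under IFNγ, and 13.7, 12.4 and 12.5 under both agents. Every treated sample was below every control sample, and the IFNγ samples overlapped with both other treated groups. The log2 difference was -0.32 (SE 0.05, adjusted p = 0.0171) for SB-3CT against control and -0.42 for IFNγ against control. The combination was lower than SB-3CT alone by a log2 difference of -0.33 (SE 0.05, adjusted p = 0.00395), a value that became -0.08 (adjusted p = 0.356) after median-ratio scaling. Against IFNγ alone it was -0.23 (SE 0.10, adjusted p = 0.123), -0.34 (adjusted p = 0.0149) without IFNγ 2, and 0.01 after scaling. With scaling, both differences from control passed, at -0.28 (adjusted p = 0.025) for SB-3CT and -0.37 (adjusted p = 0.0165) for IFNγ. Neither was robust to the loss of a sample: the call against control was lost without control 1 or 3 or SB-3CT 2 or 3 (adjusted p up to 0.0801), and for IFNγ without any control sample or IFNγ 3 (up to 0.126), while the direction was kept.

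ENO2 encodes enolase 2, the neuronal isoform of the enzyme that makes phosphoenolpyruvate. It lies at chr12:7022909-7032861 on the plus strand, where it overlaps LRRC23 on the same strand. It was at 10.2, 9.85 and 10.9 FPKM in control, 9.95, 9.91 and 9.23 under SB-3CT, 11.1, 9.44 and 10.6 under IFNγ, and 8.19, 8.73 and 6.47 under both agents. The samples given both agents were below all 9 others. ENO2 fell for the combination against IFNγ by 0.38 (SE 0.11, adjusted p = 0.0338) on the log2 scale, and the value was -0.15 (adjusted p = 0.309) after median-ratio scaling. Against SB-3CT alone the log2 difference was -0.29 (SE 0.10, adjusted p = 0.0725) with no overlap between the groups. The call against IFNγ was lost without IFNγ 1 or 3 or without sample 1 or 3 of the combination (adjusted p up to 0.134).

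Both genes have an abundant paralog that carries most of the enzyme's mRNA, and a share within a sample does not depend on scaling between samples. The shares given here and below are not corrected for a trend of a sample with transcript length. ALDOC made up 1.94% ± 0.05 (SD, n = 3) of ALDOC plus ALDOA in control, 1.28% ± 0.02 with SB-3CT, 1.45% ± 0.20 with IFNγ and 1.19% ± 0.02 with both. ENO2 made up 0.64% ± 0.03 of ENO2 plus ENO1 in control, 0.522% ± 0.0049 with SB-3CT, 0.546% ± 0.014 with IFNγ and 0.439% ± 0.064 with both. For both pairs the 3 treated values were below the 3 compared values in each of the 4 comparisons, with an exact two-sided permutation p = 0.1, the smallest that 3 against 3 samples can give. The pairs were chosen after their values had been seen. The shares alone show unequal movement of 2 paralogs and not which of them moved. ALDOA ran from 1007 to 1302 FPKM. It was called higher with SB-3CT (log2 difference 0.28, adjusted p = 0.0248) and not with IFNγ (-0.01, adjusted p = 0.955). ENO1 ran from 1566 to 1983 FPKM. With either agent alone it was above all control samples without passing (0.21, adjusted p = 0.0604, and 0.24, adjusted p = 0.0609). ENO2 itself passed with neither agent alone (-0.08, adjusted p = 0.418, and 0.01, adjusted p = 0.967).

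**Figure D3:**
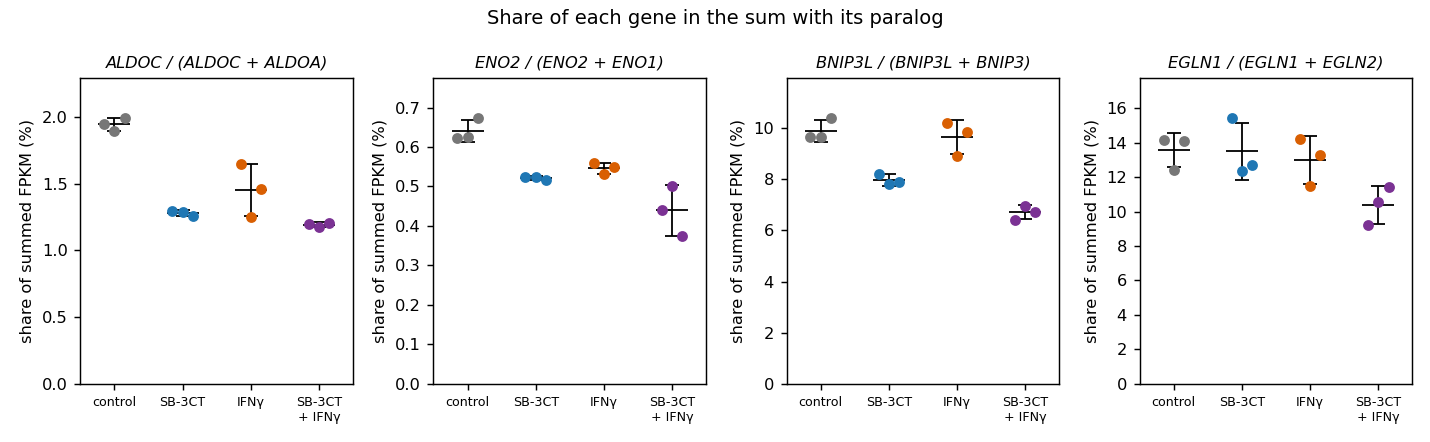
Share of each gene in the summed FPKM of itself and a paralog, in percent, for each sample (points) with the mean and SD of the 3 samples per group; axes start at 0. The shares of ALDOC and ENO2 were lower than in control in all 9 treated samples. Those of BNIP3L were lower in the 2 groups given SB-3CT, and those of EGLN1 in the group given both agents.

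The mitophagy receptors BNIP3 and BNIP3L, outer mitochondrial membrane proteins that bind LC3-family proteins and are among the best known HIF targets, parted in these cells. BNIP3, at chr10:133781188-133795471 on the minus strand, was at 73.8, 75.6 and 72.8 FPKM in control, 72.2, 71.2 and 75.3 under SB-3CT, 73.5, 67.6 and 68.9 under IFNγ, and 69.1, 69.2 and 70.5 under both agents. Long non-coding RNA genes overlap BNIP3 on the opposite strand. Its FPKM groups overlapped in all comparisons but the last, where the combination was below SB-3CT alone in every sample. Log2 differences ran from -0.08 (IFNγ against control, adjusted p = 0.271) to -0.01 (combination against IFNγ, adjusted p = 0.928), and no comparison passed the test. After median-ratio scaling the combination was higher, by 0.25 (adjusted p = 0.00575) against IFNγ and 0.19 (adjusted p = 0.0246) against SB-3CT, so its direction flips with the scaling. BNIP3, with 6 core matches, had the smallest ratio of highest to lowest FPKM (1.12). ALDOC, with 5 matches, had a ratio of 1.74, and ADM, with 1, had 1.33. A relation between matches and spread was not tested.

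BNIP3L, at chr8:26240570-26363152 on the plus strand, was at 7.88, 8.06 and 8.45 FPKM in control, 6.47, 6.02 and 6.44 under SB-3CT, 8.34, 6.63 and 7.52 under IFNγ, and 4.74, 5.18 and 5.09 under both agents. PNMA2 overlaps BNIP3L on the opposite strand, and long non-coding RNA genes overlap it on the same strand. The SB-3CT samples lay below all control samples, and the samples with both agents lay below all others. SB-3CT lowered it with and without IFNγ: the log2 difference was -0.32 (SE 0.06, adjusted p = 0.0238) against control and -0.50 (SE 0.09, adjusted p = 0.0059) against IFNγ. Median-ratio scaling left both called, at -0.28 (adjusted p = 0.0235) and -0.28 (adjusted p = 0.0209). The call against IFNγ held without any single sample and was lost under quantile normalisation (-0.18, adjusted p = 0.0665), and that against control was lost without any control sample or SB-3CT 2 or 3 (adjusted p up to 0.0833). The difference between them was -0.18 and did not pass (adjusted p = 0.26), becoming 0.00 after scaling. IFNγ alone gave -0.11 (adjusted p = 0.443). The drop from SB-3CT to the combination was -0.28 (SE 0.06, adjusted p = 0.0122), and -0.06 (adjusted p = 0.487) after scaling. As a share of BNIP3L plus BNIP3, it was 9.9% ± 0.43 in control, 7.97% ± 0.22 with SB-3CT, 9.65% ± 0.66 with IFNγ and 6.71% ± 0.27 with both. The share was lower in every sample given SB-3CT than in every sample without it (exact permutation p = 0.1 for each comparison at 3 against 3). The IFNγ and control samples overlapped (exact permutation p = 0.6). The transcripts differ in length, at 3452 bases for BNIP3L and 1542 for BNIP3, and the share with the length trend removed was not obtained.

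The carbonic anhydrases convert carbon dioxide and water to bicarbonate and protons, and CA9 and CA12 do so at the outer face of the plasma membrane. CA9, at chr9:35673925-35681156 on the plus strand with ARHGEF39 on the opposite strand, was at 2.36, 1.97 and 2.37 FPKM in control, 2.79, 2.84 and 2.77 under SB-3CT, 2.65, 2.46 and 2.6 under IFNγ, and 1.89, 2.15 and 2.03 under both agents. Each agent alone gave values above all control samples, and the combination gave values below both single agents and overlapping with control. SB-3CT against control was 0.23 and IFNγ against control 0.14 (adjusted p = 0.261) on the log2 scale, and neither passed. Of 14 alternatives for the SB-3CT difference, 3 passed as higher, quantile normalisation among them (0.34, adjusted p = 0.0404). The combination was lower than IFNγ by -0.24 (SE 0.08, adjusted p = 0.0483) and lower than SB-3CT by -0.33 (SE 0.07, adjusted p = 0.00966), and neither passed after median-ratio scaling (-0.06, adjusted p = 0.541, and -0.15, adjusted p = 0.159). Under quantile normalisation the first turned direction (0.02). The call against SB-3CT held without any single sample, and that against IFNγ was lost without IFNγ 1 or 3 or any sample of the combination (adjusted p up to 0.118). CA12, at chr15:63613577-63674045 on the minus strand, was at 0 in 8 of the 12 samples and gives no comparison.

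CA9 and EGLN1 were the members whose response to SB-3CT differed with IFNγ by the test as deposited. The difference between the SB-3CT differences of CA9 with and without IFNγ was -0.47 (SE 0.10, adjusted p = 0.00962) in a fit over all 12 samples, and -0.32 (adjusted p = 0.0389) after median-ratio scaling. EGLN1 was at -0.44 (SE 0.12, adjusted p = 0.0221), and it did not pass after scaling (-0.25, adjusted p = 0.108). The CA9 call held without any single sample (adjusted p from 0.00705 to 0.0277), and the EGLN1 call was lost without control 2, SB-3CT 1 or IFNγ 1 (up to 0.0598). These 2 of 10 members compare with 22.3% of all genes called for that difference, 17.6% lower and 4.74% higher. Of the 3177 genes with a mean of at least 1 FPKM, 10.2% had a lower value than CA9 and 14.1% a lower value than EGLN1. The remaining members did not pass, from -0.30 for ENO2 (adjusted p = 0.131) to 0.23 for ANKRD37 (adjusted p = 0.231), which became 0.43 (adjusted p = 0.106) after scaling. After scaling, BNIP3 passed as higher, at 0.23 (adjusted p = 0.0284), and 13% of all genes passed, 5.23% lower and 7.81% higher.

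The oxygen sensors were measured at very different levels. EGLN1 encodes PHD2, the main HIF prolyl hydroxylase in most cells. It lies at chr1:231499497-231558033 on the minus strand, where it overlaps an unnamed protein-coding gene on the same strand. It was at 7.94, 7.32 and 8.51 FPKM in control, 8.69, 7.77 and 8.13 under SB-3CT, 9.06, 7.54 and 8.08 under IFNγ, and 5.45, 6.18 and 6.46 under both agents. The first 3 groups overlapped, and the samples with both agents were below all others. The log2 difference was 0.05 for SB-3CT (adjusted p = 0.743) and 0.05 for IFNγ (adjusted p = 0.757) against control. The combination gave -0.39 (SE 0.09, adjusted p = 0.0137) against IFNγ and -0.39 (SE 0.07, adjusted p = 0.00941) against SB-3CT. After median-ratio scaling these were -0.17 (adjusted p = 0.134) and -0.16 (adjusted p = 0.158), and with the length trend removed -0.05 (adjusted p = 0.558) and -0.17 (adjusted p = 0.0788). Without IFNγ 3 the call against IFNγ was lost (adjusted p = 0.0539). As a share of EGLN1 plus EGLN2, which needs no scaling, EGLN1 was 13.6% ± 0.98 in control, 13.5% ± 1.7 with SB-3CT, 13.0% ± 1.4 with IFNγ and 10.4% ± 1.1 with both. The share with both agents was below that with either agent in every sample (exact permutation p = 0.1), and either agent alone overlapped with control (exact permutation p = 0.9 and 0.7).

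EGLN3 encodes PHD3, a HIF-induced hydroxylase, and lies at chr14:34393433-34931980 on the minus strand, where EGLN3-AS1 and SPTSSA overlap it. It was at 0.13, 0.149 and 0.0894 FPKM in control, 0.239, 0.261 and 0.169 under SB-3CT, 0.147, 0.0831 and 0.0547 under IFNγ, and 0.0931, 0.0555 and 0.114 under both agents. The SB-3CT samples were above all 9 others. The combination fell below SB-3CT alone by 0.17 (SE 0.04, adjusted p = 0.0144) on the log2(FPKM + 1) scale, and the call held after median-ratio scaling (-0.14, adjusted p = 0.0455). With the trend on transcript length removed from each sample the direction turned (0.04, adjusted p = 0.453). Against IFNγ the combination was at -0.01 (adjusted p = 0.883) as deposited. With the length trend removed, EGLN3 was called higher there (0.18, adjusted p = 0.0247). At these levels the added 1 compresses the difference: the combination's mean was 0.393 of that with SB-3CT in FPKM, and the mean with SB-3CT was 1.82 times that of control. The level is under that of 1 FPKM in all samples, the reads behind it cannot be counted from the files, and whether overlapping transcripts contributed was not tested.

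ADM and ANKRD37 complete the set. ADM encodes the precursor of adrenomedullin, a vasodilator peptide induced by HIF, and lies at chr11:10326620-10328944 on the plus strand. It was at 14.3, 12.7 and 13.6 FPKM in control, 16.4, 16.4 and 13.8 under SB-3CT, 16.9, 13.7 and 15.7 under IFNγ, and 15.6, 13.9 and 15.1 under both agents. All groups overlapped. Its log2 differences were 0.19 for SB-3CT (SE 0.08, adjusted p = 0.166) and 0.18 for IFNγ (SE 0.09, adjusted p = 0.213), and after median-ratio scaling the latter passed at 0.22 (adjusted p = 0.0391). CALCRL, which encodes the receptor that binds adrenomedullin with a RAMP partner, had a mean of 0.0317 FPKM and passed the test in no comparison.

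ANKRD37 was the member called higher as deposited, while BNIP3 and ADM were called higher only after median-ratio scaling. It lies at chr4:186317175-186321782 on the plus strand, opposite UFSP2, and was at 12.6, 13.7 and 11.2 FPKM in control, 10.4, 12.6 and 11.9 under SB-3CT, 11.3, 13.7 and 13.1 under IFNγ, and 14.9, 13.7 and 13.4 under both agents. The samples with both agents were above all SB-3CT samples and overlapped with the other groups. ANKRD37 rose for the combination against SB-3CT by 0.25 (SE 0.08, adjusted p = 0.0482), which became 0.49 (adjusted p = 0.0141) after median-ratio scaling, and 90.5% of the genes with a mean of at least 1 FPKM had a lower value. With the length trend removed it was 0.07 (adjusted p = 0.433). As deposited the call rests on all samples but 1, since it was lost without any of SB-3CT 1 and 3 or any sample of the combination (adjusted p up to 0.133). Against IFNγ it was 0.13 (adjusted p = 0.256), 0.37 (adjusted p = 0.0314) after scaling and -0.11 (adjusted p = 0.213) with the length trend removed. SB-3CT and IFNγ against control gave -0.09 (adjusted p = 0.546) and 0.02 (adjusted p = 0.941).

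Of the HIF machinery itself, 10 genes were in the table. SB-3CT with IFNγ against IFNγ lowered 7 of the 10 and raised 0, beside 31.5% and 6.41% of all genes, and after median-ratio scaling lowered 4 and raised 2, beside 15.5% and 16.5%. The median log2 difference of the list was -0.41, and -0.20 after scaling, beside -0.20 and 0.02 for all genes of at least 1 FPKM. Against SB-3CT alone the combination lowered 6 and raised 0, beside 32.7% and 7.85% of all genes, and after scaling lowered 2 and raised 2, beside 10.2% and 13.7%. The list was written by hand with earlier results of these data known. Values with the length trend removed were obtained for the members only, not for these genes.

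CUL2, the scaffold of the von Hippel-Lindau ubiquitin ligase, was at 8.43, 7.4 and 8.52 FPKM in control, 6.28, 5.22 and 5.51 under SB-3CT, 13.2, 11.8 and 12 under IFNγ, and 6.46, 6.57 and 7.01 under both agents. IFNγ samples were above all others and every SB-3CT sample was below every control sample. CUL2 rose with IFNγ by 0.55 (adjusted p = 0.00455), fell with SB-3CT by 0.45 (adjusted p = 0.0238), and fell by 0.79 (adjusted p = 0.00194) when SB-3CT was added to IFNγ. The last held after median-ratio scaling, as did the falls of ARNT2, EP300 and CITED2 in the same comparison.

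ARNT2, a partner of the HIF α subunits related to ARNT, fell by 0.60 (adjusted p = 0.00397) for the combination against IFNγ and by 0.66 (adjusted p = 0.000402) against SB-3CT. CITED2, which competes with HIF for the coactivators, fell by 0.49 (adjusted p = 0.00224) and 0.91 (adjusted p = 0.000102). It was at 10.5, 11.4 and 10.9 FPKM with IFNγ, 15.6, 14.4 and 14.8 with SB-3CT, and 7.47, 7.53 and 7.41 with both, so the combination was below either agent in every sample. The coactivators EP300 and CREBBP fell by 0.55 and 0.41 against IFNγ, and by 0.38 and 0.40 against SB-3CT, and ARNT fell by 0.41 and 0.32. After median-ratio scaling EP300 was called against IFNγ (-0.35, adjusted p = 0.0088) and not against SB-3CT (-0.17, adjusted p = 0.15). CREBBP (-0.19, adjusted p = 0.317, and -0.17, adjusted p = 0.0766) and ARNT (-0.20, adjusted p = 0.0624, and -0.11, adjusted p = 0.276) then passed in neither comparison. ARNT2 (-0.37 and -0.42) and CITED2 (-0.27 and -0.68) passed in both. EPAS1, the HIF-2α gene, rose by 0.20 with SB-3CT and 0.21 with IFNγ and fell by 0.20 and 0.19 with the combination, at a mean of 0.64 FPKM. Its rises held after scaling (0.21 and 0.22), and its falls did not (-0.10, adjusted p = 0.169, and -0.09, adjusted p = 0.219).

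COPS5, a signalosome subunit known to bind HIF-1α, fell by 0.23 with SB-3CT (adjusted p = 0.0372) and by 0.43 with IFNγ (adjusted p = 0.00233). COMMD1, an inhibitor of HIF-1 dimerisation, fell by 0.25 and 0.19. After median-ratio scaling the falls of COPS5 held and those of COMMD1 did not (adjusted p = 0.057 and 0.109). Neither gene passed in the combination as deposited. After scaling both were higher against IFNγ, COPS5 by 0.42 and COMMD1 by 0.20. Against SB-3CT, COMMD1 was then higher by 0.26 (adjusted p = 0.0324), and COPS5 did not pass (0.22, adjusted p = 0.0693). EGLN2, the third hydroxylase gene, had a mean of 52.6 FPKM and passed the test in none of the pairwise comparisons as deposited. For the dependence of the SB-3CT difference on IFNγ, ARNT2 (-0.72), CITED2 (-0.70), EP300 (-0.52), EPAS1 (-0.40) and CUL2 (-0.34) were lower and COPS5 (0.40) was higher. All but CUL2 (-0.15, adjusted p = 0.289) passed after scaling as well.

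**Figure D4:**
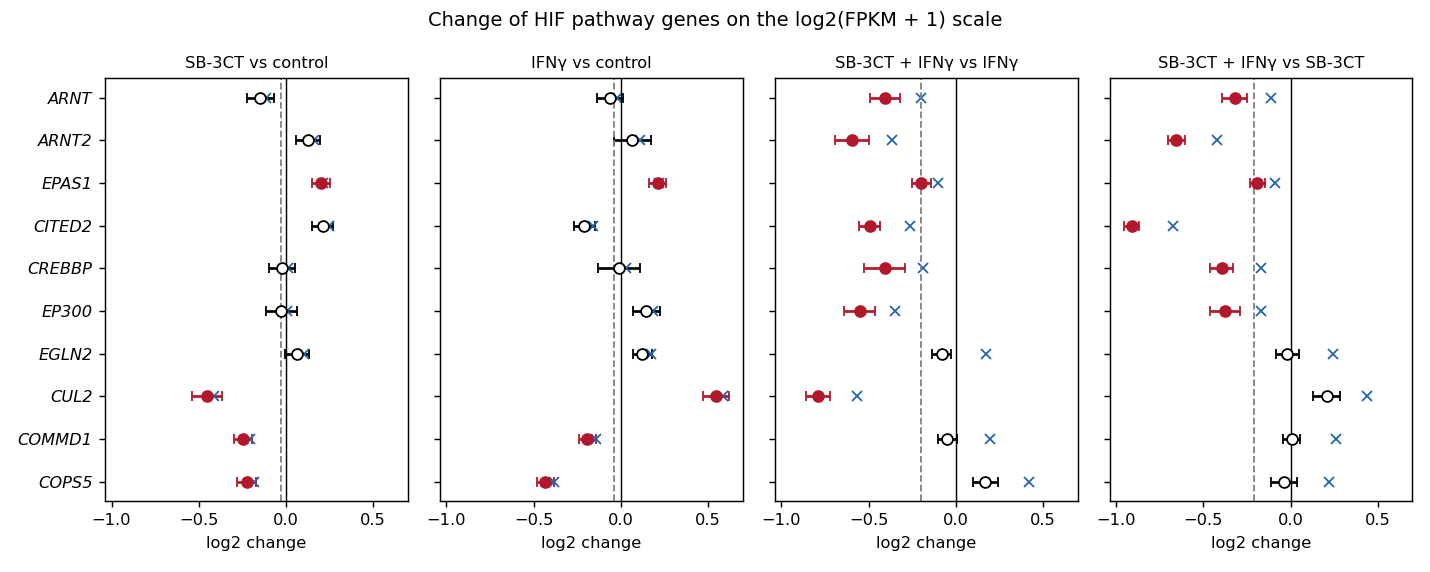
Log2 difference of 10 HIF pathway genes in the 4 pairwise comparisons on the log2(FPKM + 1) scale (circles, with SE; filled red where the adjusted p was under 0.05), the value after median-ratio scaling (blue crosses), and the median of all genes with at least 1 FPKM (dashed line). CUL2 lies at 0.55 with IFNγ and at -0.79 when SB-3CT was added to IFNγ, and ARNT2 and CITED2 are the lowest in the last panel.

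Other genes known to be induced by hypoxia moved in both directions. Of 28 listed, 25 were in the table. SB-3CT raised 5 and lowered 3 of them, beside 5.37% and 6.87% of all genes, and IFNγ raised 5 and lowered 6, beside 8.46% and 11%. The combination raised 4 and lowered 8 against IFNγ, beside 6.41% and 31.5% of all genes, and raised 2 and lowered 13 against SB-3CT, beside 7.85% and 32.7%. After median-ratio scaling these became 6 and 6, beside 16.5% and 15.5%, and 5 and 6, beside 13.7% and 10.2%. With SB-3CT the largest rises were of ANGPTL4, a secreted inhibitor of lipoprotein lipase, by 1.80, the phosphatase gene DUSP1 by 0.83 and the stress transcription factor gene ATF3 by 0.79. Its largest falls were of the enolase gene ENO3, a paralog, by 0.36, C4orf3 by 0.31 and the kinase anchor gene AKAP12 by 0.29. ANGPTL4 was at 0.994, 1.11 and 1.06 FPKM in control, 5.71, 6.77 and 6.08 under SB-3CT, 4.2, 3.87 and 4.24 under IFNγ, and 7.03, 6.44 and 6.33 under both agents. Every treated sample was above every control sample.

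With IFNγ, CA11, a catalytically inactive carbonic anhydrase relative, rose by 1.83, ATF3 by 1.55 and ANGPTL4 by 1.31, and AKAP12 fell by 0.79, the clock and hypoxia repressor gene BHLHE40 by 0.71 and the mitochondrial gene FAM162A by 0.70. When SB-3CT was added to IFNγ, ANGPTL4 rose by 0.57, FAM162A by 0.51 and C4orf3 by 0.45, and AKAP12 fell by 0.77, ERRFI1, an inhibitor of EGFR signalling, by 0.73 and CTGF by 0.59. Against SB-3CT alone, the combination raised CA11 by 1.74, ATF3 by 0.82 and C4orf3 by 0.71, and lowered AKAP12, BHLHE40 and EFNA1, an ephrin gene, with log2 differences of -1.26, -0.99 and -0.80. The SB-3CT difference depended on IFNγ for ANGPTL4 (-1.23), ERRFI1 (-0.86) and DUSP1 (-0.76), and in the other direction for FAM162A (0.77) and C4orf3 (0.77). Each of these calls that involves the combination held after median-ratio scaling. FAM162A was at 80.1, 80.8 and 80.3 FPKM in control, 63.4, 69.1 and 68.5 under SB-3CT, 45.3, 53.1 and 49.2 under IFNγ, and 65.3, 71.7 and 74.0 under both agents. The IFNγ samples were lowest and the combination overlapped with SB-3CT alone. Of 14 paralogs of the members in the table, 3 were higher and 1 lower with SB-3CT, 3 and 2 with IFNγ, 0 and 4 for the combination against IFNγ, and 3 and 4 against SB-3CT, to be read beside the same shares of all genes. After median-ratio scaling the last pair of counts became 2 higher and 0 lower, and 4 higher and 2 lower.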

How the data were processed

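A375 cells were sequenced in 12 samples, 3 in each of 4 groups taken from the sample titles. Per the submitters' processing notes, the authors used HISAT2 2.0.5 and StringTie 1.3.3 with hg19, and the deposited values are log2(FPKM + 1), as judged from their range (12.16 at most). Whether counting used strand is not given in the sources used here. The log2 values were tested as deposited, so the planned step of taking logarithms was left out, and FPKM was obtained as 2 to the power of the value minus the pseudocount of 1. No filter on low values was applied, and each gene was above 0 in at least 2 samples. 0 columns were left unused. Depth is unknown, so no counting intervals are given.

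Groups were compared over all 4918 genes with limma 3.58.1 in R 4.3.3 (lmFit, eBayes with a variance trend, unpaired, 3 + 3 samples), and the dependence of the SB-3CT difference on IFNγ was fitted over 12 samples. A gene was called at a Benjamini-Hochberg adjusted p under 0.05, and "fell" and "rose" refer to calls. The functions were tested on simulated data. Alternatives were median-ratio scaling, quantile normalisation, a trend on transcript length, a replicate block, a fold rule and leaving out each sample. Others were a pseudocount of 0.1, only genes with a mean of at least 1 FPKM, a joint fit of the 4 groups, and eBayes without the trend. Positions and lengths came from GENCODE 44 on GRCh37, where 4458 symbols matched as written and another 415 by an earlier name, and promoters from RefSeq. All members and all HIF machinery genes are named. From the other hypoxia-induced genes and the paralogs, the 3 largest rises and falls among calls with a mean of at least 1 FPKM are named in each comparison, together with CXCL10 and CD274. The members and all lists were chosen with earlier results of these data known.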

Additional observations from a re-analysis of the deposited data

Results flagged for a closer look

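CA9 responded differently to SB-3CT depending on IFNγ, by the test of that difference in limma over all 12 samples. The log2 value was -0.475 (SE 0.10, adjusted p = 0.00962), from 0.23 without IFNγ to -0.24 with it. All 3 SB-3CT samples were above all control samples, and all 3 samples with both agents were below all IFNγ samples. For EGLN1 the same difference was -0.437 (SE 0.12, adjusted p = 0.0221), from 0.05 to -0.39. After median-ratio scaling CA9 passed (-0.32, adjusted p = 0.0389) and EGLN1 did not (-0.25, adjusted p = 0.108). The SB-3CT difference of CA9 was then 0.26 (adjusted p = 0.0615) without IFNγ and -0.06 (adjusted p = 0.541) with it. Of all genes tested 22.3% passed for the dependence on IFNγ as deposited, 17.6% lower and 4.74% higher, beside 2 of 10 members, both lower. The share of EGLN1 in EGLN1 plus EGLN2, which needs no scaling between samples, was 13.5% with SB-3CT and 13.6% in control, and 10.4% with both agents and 13.0% with IFNγ. That share is not corrected for transcript length. With the length trend removed, EGLN1 in the combination against IFNγ was at -0.05 (adjusted p = 0.558).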

How the results depend on the processing

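Few member calls were firm. Over 45 member results and 670 alternatives, 556 kept direction and side of the threshold, 64 lost and 10 gained a call, and 40 turned direction. Of 15 called results 13 kept their direction throughout and 0 kept their call throughout. The causes were not tested, beyond the smaller number of samples when one is left out. Depth is unknown, which limits what can be said of EGLN3 and CA12.

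Members called for SB-3CT against control (2) became 0 under the fold rule and 0 to 2 when a sample was left out. They became 3, with CA9 as the added rise, under quantile normalisation, in a joint fit of the 4 groups and without the variance trend. The limma adjusted p of CA9 was then 0.0404, 0.0471 and 0.0491. For IFNγ against control (1) they became 2 under median-ratio scaling, 0 under the fold rule and 0 to 1 with a sample left out. For the combination against IFNγ (4, all lower) they became 0 under the fold rule and 1 to 5 with a sample left out. Under quantile normalisation 1 was called, as higher, so the 4 lower calls were lost. With the length trend removed 3 were called, 1 higher (EGLN3) and 2 lower. Against SB-3CT (6, 1 higher and 5 lower) they became 3 under median-ratio scaling, 2 higher and 1 lower. Quantile normalisation left 2, 1 higher and 1 lower. They became 2 with the length trend removed, each lower, 0 under the fold rule and 5 to 6 with a sample left out. For the dependence on IFNγ (2) they became 0 under quantile normalisation, 1 with the length trend removed, 0 under the fold rule and 1 to 2 with a sample left out. The CA9 value was then -0.32 under quantile normalisation (adjusted p = 0.0509).

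Whether replicate numbers pair the samples was not settled. Correlations of same-numbered deviations from group means of 3 samples ran from -0.39 to 0.17. Differently numbered samples were not compared, so these values cannot exclude a shared culture or batch. With the replicate number as a block, members called were 0 for SB-3CT, 1 for IFNγ, 2 for the combination against IFNγ, 2 against SB-3CT and 2 for the dependence on IFNγ.

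Of all genes, 602 were called for SB-3CT against control, 259 with the block, 49 by the fold rule and 73 (without control 2) to 912 (without SB-3CT 1) with a sample left out. For IFNγ against control 958 became 234 by the fold rule and as few as 562 without control 3. For the combination, 1862 against IFNγ became 367 by the fold rule and 1230 without IFNγ 3, and 1994 against SB-3CT became 1179 after median-ratio scaling and 278 by the fold rule. For the dependence on IFNγ 1099 became 641 after median-ratio scaling, 640 under quantile normalisation, 161 by the fold rule and as few as 678 without control 2. Median-ratio scaling also moved the split of calls, to 16.5% higher and 15.5% lower for the combination against IFNγ. With the length trend removed that split turned, from 315 higher and 1547 lower to 867 higher and 525 lower. Against SB-3CT it went from 386 higher and 1608 lower to 787 higher and 820 lower.

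Direction turned as follows on the log2 scale. For SB-3CT against control, BNIP3 was 0.019 after median-ratio scaling, and EGLN1 was -0.005 (without control 2) to 0.091 with a sample left out. For IFNγ against control, quantile normalisation gave -0.004 for ANKRD37 and -0.030 for ENO2, and removal of the length trend gave -0.008 for EGLN1, 0.012 for EGLN3 and -0.001 for ENO2. With a sample left out there, EGLN1 ran from -0.017 to 0.101, ENO2 from -0.039 to 0.070 and ANKRD37 from -0.054 to 0.094. For the combination against IFNγ, median-ratio scaling gave 0.193 for ADM, 0.012 for ALDOC, 0.245 for BNIP3 and 0.014 for EGLN3, quantile normalisation gave 0.166 for ADM, 0.020 for CA9 and 0.017 for EGLN3, and the length setting gave -0.113 for ANKRD37 and 0.179 for EGLN3. With a sample left out, ADM ran from -0.126 to 0.017, BNIP3 from -0.032 to 0.027 and EGLN3 from -0.036 to 0.025, each highest without IFNγ 1. Against SB-3CT, median-ratio scaling gave 0.190 for ADM and 0.194 for BNIP3, quantile normalisation 0.131 and 0.016, and the length setting 0.045 for EGLN3. For the dependence on IFNγ, BNIP3L was 0.003 after median-ratio scaling, 0.089 under quantile normalisation and 0.059 in the length setting, where EGLN3 was 0.034. With a sample left out, BNIP3 ran from -0.009 to 0.050 and ALDOC was as low as -0.019.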
